A study of Mus musculus with 28 samples.

Results

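The 9 genes described here encode proteins that join epithelial cells to each other. They are the classical cadherin Cdh1 (E-cadherin, ENSMUSG00000000303), the intestinal cadherin Cdh17 (LI-cadherin, ENSMUSG00000028217), the desmosomal cadherins Dsg2 (ENSMUSG00000044393) and Dsc2 (ENSMUSG00000024331), the desmosomal plaque proteins Dsp (desmoplakin, ENSMUSG00000054889), Jup (plakoglobin, ENSMUSG00000001552) and Pkp2 (plakophilin, ENSMUSG00000041957), the desmosome-associated membrane protein Perp (ENSMUSG00000019851), and the gap junction connexin Gjb1 (ENSMUSG00000047797). They were taken by gene name, and 9 of 9 were present among 29413 genes of the BMP table and among 55416 genes of the Tgfb table. All 9 passed the minimum on low values, and the lowest mean of any of them in untreated organoids was 548 normalized counts, for Gjb1.

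Organoids were grown from small-intestinal crypts of wild-type C57BL/6 mice, first for 48 h in ENR, a medium named for EGF, the BMP antagonist Noggin and R-spondin, and were then moved to fresh matrix, with or without 1 recombinant ligand at 500 ng/ml for 24 h. The BMP table holds 20 of the 28 samples: untreated control (n = 4), BMP2 (n = 4), BMP3 (n = 3), BMP4 (n = 3), BMP5 (n = 3) and BMP7 (n = 3). The Tgfb table holds untreated control (n = 3) and Tgfb (n = 3), and the mesenchymal table holds cells of PdgfraH2BeGFP mice (duodenum), 1 sample of fresh cells and 1 of cells immortalised with HPV16-E6 and sorted for eGFP. The labels give the replicates as separate samples without saying whether they came from separate animals or cultures, so p-values measure the spread between these samples, and they do not state the medium used during the ligand treatment.

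BMPs and TGF-beta are secreted ligands that bind paired receptor kinases on the cell surface, which phosphorylate SMAD proteins that enter the nucleus and change transcription. In the small intestine, BMP signalling is known to be low in the crypt and high towards the villus tip, where enterocytes finish differentiating. Adherens junctions are built from Cdh1 bound to catenins and the actin cytoskeleton, while desmosomes link desmogleins and desmocollins through plakoglobin, plakophilins and desmoplakin to keratin filaments. Connexins form the channels of gap junctions between neighbouring cells.

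The deposited BMP values were whole reads divided by 1 factor per sample, and between 21358620 and 24784834 reads were recovered per sample. The deposited scaling left different totals: normalized counts summed to 19250832 to 20518942 in controls, 26268636 to 29004576 with BMP2 and 25574455 to 26979289 with BMP4, against 18927350 to 21250465 with BMP3, BMP5 or BMP7. The epithelial markers Epcam, Vil1, Krt8, Krt18, Krt19, Cdx1 and Cdx2 were all detected, while the mesenchymal list summed to at most 122 normalized counts in any group of the BMP table, and Dcn and Lum, valued in the Tgfb table only, were at 0 there. Of the endothelial list, Cldn5 and Emcn were likewise at 0 in the Tgfb table. Pecam1 stood at 569 to 774 normalized counts in controls and was called higher with BMP2 (789 to 988, adjusted p = 0.00628) and BMP4 (865 to 1030, adjusted p = 0.00331), while in the Tgfb table it was at or below 0.632 TPM in every sample. Its part in the junction results was not tested.

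Among the 5 ligands, all 9 junction genes differed in level (limma F-test over the 5 ligand groups, adjusted p from 3.01e-11 for Cdh1 to 9.49e-05 for Gjb1). That test called 84.1% of all genes tested, so a call there does not set the members apart. BMP2 gave the highest mean of 8 of the genes, and BMP4 the highest mean of Cdh17. Summed, the 9 genes took 0.367% to 0.396% of all normalized counts in a control sample and 0.389% to 0.4% in a BMP3 sample. Under BMP2 this share was 1% to 1.15%, under BMP4 0.547% to 0.609%, under BMP5 0.58% to 0.709% and under BMP7 0.664% to 0.726%, so no sample of these 4 ligands overlapped the controls. In bulk samples, more cells of a type and more RNA per cell cannot be told apart.

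**Figure D1:**
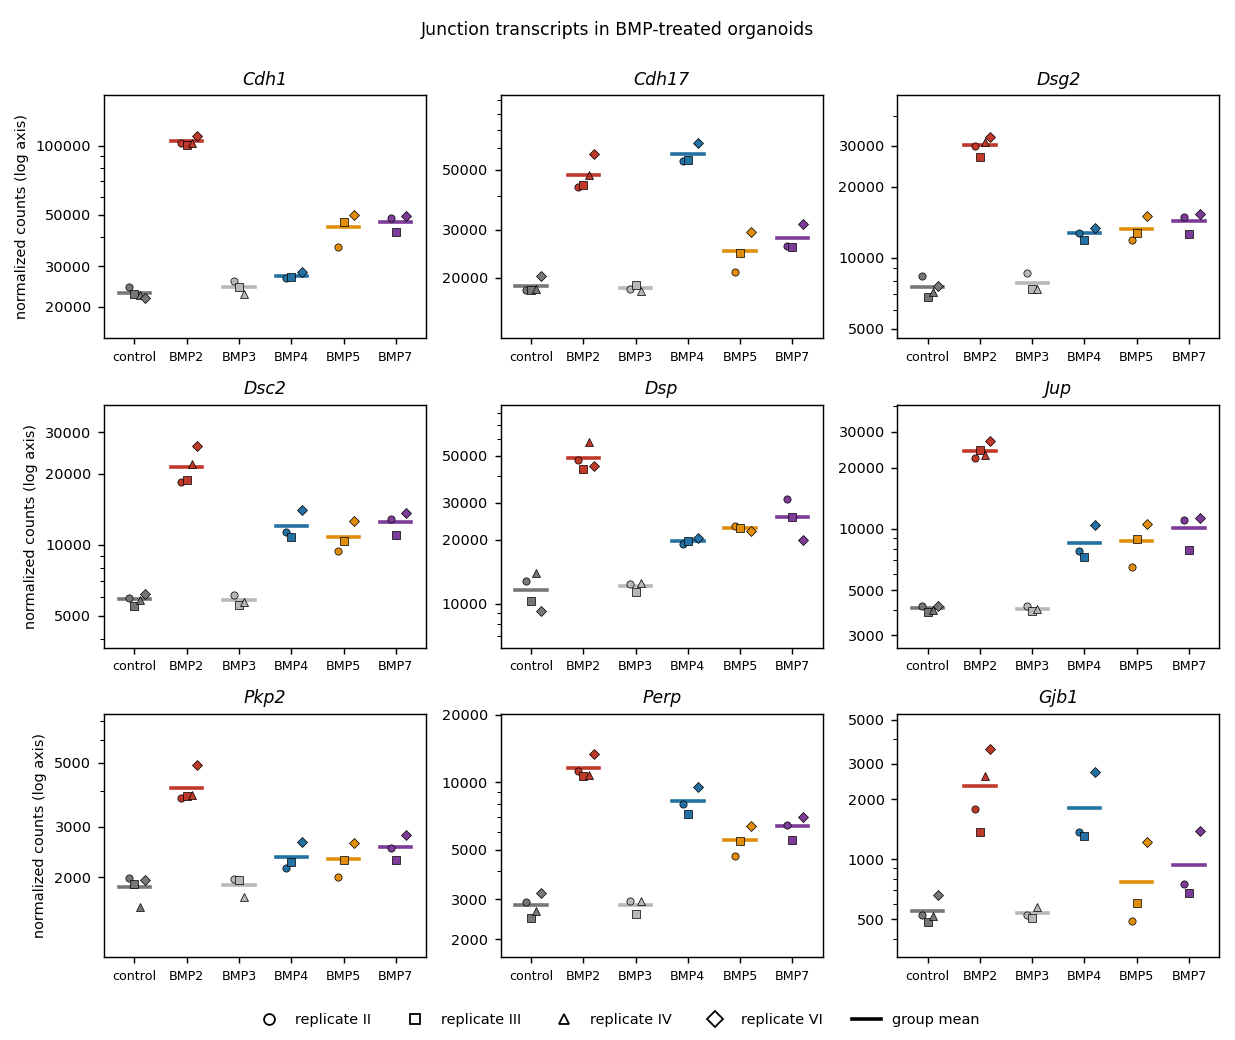
Normalized counts of the 9 junction genes (log axis) in each organoid sample of the BMP table, by ligand; symbols mark the replicate number and bars the group mean. BMP2 samples lie above every control sample in all 9 panels, BMP3 samples lie among the controls or close to them (for Cdh1 22700 to 25800 against 21900 to 24300), and in the Cdh1 panel BMP4 sits just above the controls (26700 to 28400), a difference that turns negative when every sample is scaled to the same total or by quantiles.

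Cdh1, the cadherin of the adherens junction, had the highest F of the 9 genes among the ligands (119). Its normalized counts were 24300, 22800, 22500 and 21900 in the control samples, and 103000, 101000, 103000 and 110000 with BMP2. With BMP4 they were 26700, 26900 and 28400, with BMP5 36500, 46800 and 49800, and with BMP7 48500, 42000 and 49300. Every BMP2 sample therefore lay far above every other sample, and the BMP5 and BMP7 samples formed a middle range that did not reach down to BMP4. Cdh1 rose 4.56-fold with BMP2 (95% interval 3.93 to 5.29, adjusted p = 1.41e-12), 1.92-fold with BMP5 (1.64 to 2.26, adjusted p = 5.6e-06) and 2.03-fold with BMP7 (1.73 to 2.39, adjusted p = 1.45e-06). These comparisons share their 4 control samples. The BMP4 change was 1.2-fold (1.02 to 1.4, adjusted p = 0.0475), and it turned to a log2 change of -0.14 with equal totals (adjusted p = 0.181) and -0.40 with quantile normalization (adjusted p = 0.000613). The call was also lost when any single BMP4 sample or control replicate III, IV or VI was left out (adjusted p = 0.0778 to 0.126). As a share of all normalized counts Cdh1 stood at 0.107% to 0.118% in controls and 0.102% to 0.105% with BMP4.

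Cdh17, a cadherin of the intestinal epithelium that lacks the catenin-binding tail of classical cadherins, had another order. It measured 18000, 18000, 18100 and 20200 normalized counts in controls and 53800, 54100 and 62600 with BMP4. With BMP2 it measured 43200, 43900, 47800 and 56900. The BMP4 and BMP2 ranges overlapped, and both stood clear of the controls. The other ligands gave 20900, 24700 and 29400 with BMP5 and 26200, 26000 and 31400 with BMP7. Cdh17 rose 3.06-fold with BMP4 (2.55 to 3.66, adjusted p = 3.62e-09), 2.57-fold with BMP2 (2.17 to 3.04, adjusted p = 3.52e-09), 1.5-fold with BMP7 (1.25 to 1.79, adjusted p = 0.00146) and 1.33-fold with BMP5 (1.11 to 1.6, adjusted p = 0.0188). The BMP5 call was lost without BMP5 replicate III (adjusted p = 0.0594) or VI (adjusted p = 0.143).

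The balance of the 2 cadherins within a sample therefore moved in opposite directions with BMP2 and BMP4. The ratio of Cdh1 to Cdh17 normalized counts, which is not per length and is read only between groups, was 1.35, 1.27, 1.24 and 1.08 in controls and 2.38, 2.3, 2.15 and 1.93 with BMP2. With BMP4 it was 0.496, 0.497 and 0.454, below every other sample. It was 1.75, 1.89 and 1.69 with BMP5, 1.85, 1.62 and 1.57 with BMP7, and 1.42, 1.3 and 1.27 with BMP3. Because both genes come from the same sample, this ratio does not depend on the factor by which the sample was scaled. Between the ligands, Cdh1 was 3.81-fold higher with BMP2 than with BMP4 (3.25 to 4.47, adjusted p = 3.18e-11), while for Cdh17 the same comparison gave 0.841-fold (0.701 to 1.01, adjusted p = 0.0848). That Cdh17 difference was called with equal totals (adjusted p = 0.0144) and without BMP2 replicate VI (adjusted p = 0.0228).

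**Figure D2:**
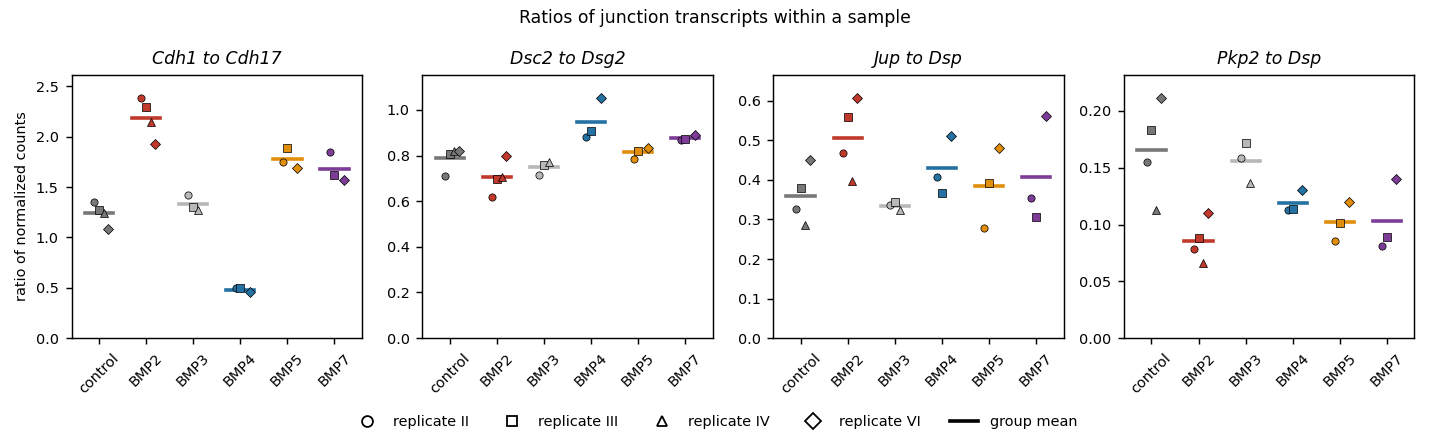
Ratios of normalized counts of 2 junction genes within each sample of the BMP table (linear axes from 0), with replicates as symbols and group means as bars. The Cdh1 to Cdh17 ratio is 0.454 to 0.497 with BMP4, 1.08 to 1.35 in controls and 1.93 to 2.38 with BMP2; the Pkp2 to Dsp ratio is lower with BMP2 (0.0665 to 0.11) than in controls (0.113 to 0.211).

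The desmosomal cadherins Dsg2 and Dsc2, whose outer parts hold the membranes of neighbouring cells together, rose with the same ligands. Dsg2 measured 8370, 6810, 7130 and 7580 normalized counts in controls and 30000, 26900, 31100 and 32700 with BMP2. Dsc2 measured 5950, 5500, 5830 and 6220 in controls and 18500, 18800, 22000 and 26100 with BMP2. With BMP2 neither gene had a sample near the control range, and Dsg2 rose 4.04-fold (3.49 to 4.67, adjusted p = 2.96e-12) and Dsc2 3.6-fold (3.02 to 4.29, adjusted p = 8.98e-11). Under BMP4, BMP5 and BMP7 the Dsg2 samples spanned 11900 to 15300 and the Dsc2 samples 9370 to 14100, all above the controls. The fold changes there lay between 1.7 (Dsg2, BMP4) and 2.12 (Dsc2, BMP7), with adjusted p from 1.42e-06 to 7.23e-05, although the BMP4 rise of Dsg2 shrank to a log2 change of 0.14 with quantile normalization (adjusted p = 0.237). The ratio of Dsc2 to Dsg2 spanned 0.711 to 0.821 in controls and overlapped that range with BMP2 (0.617 to 0.798) and BMP5 (0.787 to 0.834). It lay above every control with BMP4 (0.883 to 1.05) and BMP7 (0.866 to 0.889).

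Dsg2 and Dsc2 lie in a run of 9 desmosomal cadherin genes, in the order Dsc3, Dsc2, Dsc1, Dsg1c, Dsg1a, Dsg1b, Dsg4, Dsg3 and Dsg2 in the RefSeq annotation. Apart from the pair, Dsg3 alone among them went above 33.2 normalized counts in any sample. Its control samples spanned 14 to 27.5 normalized counts and its BMP2 samples 221 to 522, a rise of 16-fold (adjusted p = 2.12e-09). Dsg3 is known from stratified epithelium. Dsg1a was listed in the Tgfb table only, at 0, and reads of the near-identical Dsg1a, Dsg1b and Dsg1c may be split between them.

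Jup and Dsp, the plaque proteins that carry the link from the desmosomal cadherins to keratin, changed with every ligand but BMP3. The 250 bases before the start of transcription are shown for the pair because these members had 1 start each in the RefSeq promoter table (GRCm38.p6). Over the 20 samples the log2 levels of Jup and Dsp had a Pearson r of 0.95, which does not mark them out. Dsg2 had an r of 0.99 with Jup and 0.961 with Dsp. Jup lies on the minus strand, at chr11:100397791-100398040, and Dsp on the plus strand, at chr13:38151044-38151293. Each is printed 5′ to 3′ along its gene, and capitals mark GC boxes, the motif GGGCGG read on either strand.
Jup: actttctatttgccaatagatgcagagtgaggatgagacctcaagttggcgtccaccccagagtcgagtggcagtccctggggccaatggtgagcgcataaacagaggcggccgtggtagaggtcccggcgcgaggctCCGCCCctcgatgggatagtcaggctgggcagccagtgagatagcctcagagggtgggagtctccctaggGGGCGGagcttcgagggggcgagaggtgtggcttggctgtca
Dsp: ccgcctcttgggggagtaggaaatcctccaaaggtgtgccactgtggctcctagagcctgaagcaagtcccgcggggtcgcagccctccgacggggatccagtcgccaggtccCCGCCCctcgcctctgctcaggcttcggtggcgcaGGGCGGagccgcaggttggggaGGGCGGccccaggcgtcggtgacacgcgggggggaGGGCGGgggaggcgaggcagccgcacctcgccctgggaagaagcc

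The Jup window held 2 GC boxes and the Dsp window 4. At least 1 was held by 32.7% of all 32851 windows of the same length, those of Jup and Dsp included. The SMAD box CAGAC, the GC-rich SMAD motif GGCGCC and the E-box CAGGTG, read on both strands, had 0 matches in either window, against 42.2%, 9.59% and 17.2% of all windows. The GC box was searched after these 3 had no match. A match is a run of letters and does not show binding.

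Jup had the largest fold change of the 9 genes with BMP2, BMP5, BMP7 and Tgfb. Its control samples were close together at 4180, 3900, 4000 and 4180 normalized counts, and the BMP2 samples stood at 22400, 24300, 23100 and 27200. The intermediate ligands gave 7800, 7280 and 10400 (BMP4), 6500, 8920 and 10600 (BMP5) and 11000, 7890 and 11300 (BMP7). Jup rose 5.95-fold with BMP2 (4.84 to 7.31, adjusted p = 1.06e-11), 2.06-fold with BMP4 (1.65 to 2.58, adjusted p = 8.27e-06), 2.09-fold with BMP5 (1.67 to 2.61, adjusted p = 4.66e-05) and 2.44-fold with BMP7 (1.96 to 3.05, adjusted p = 4.42e-06). The BMP4, BMP5 and BMP7 samples overlapped with each other and not with controls or BMP2.

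Dsp varied more among controls, at 12800, 10300, 14000 and 9270 normalized counts. It stood at 48000, 43500, 58200 and 44900 with BMP2 and at 19100, 19800 and 20400 with BMP4. With BMP5 it stood at 23400, 22700 and 22000, and with BMP7 at 31100, 25800 and 20100. The ligand samples lay above the highest control, and the BMP2 samples above all others. The rise was 4.23-fold with BMP2 (3.46 to 5.17, adjusted p = 1.17e-10), 1.73-fold with BMP4 (1.39 to 2.15, adjusted p = 0.000135), 1.98-fold with BMP5 (1.6 to 2.46, adjusted p = 7.69e-05) and 2.21-fold with BMP7 (1.78 to 2.74, adjusted p = 1.2e-05). With quantile normalization the BMP4 change of Dsp fell to a log2 value of 0.18 (adjusted p = 0.325).

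Pkp2, a plakophilin that binds desmoplakin at the plaque, changed least of the desmosomal members. It measured 1980, 1890, 1580 and 1960 normalized counts in controls and 3770, 3820, 3870 and 4920 with BMP2, a 2.2-fold rise (1.87 to 2.59, adjusted p = 2.62e-08). With BMP7 it measured 2520, 2300 and 2810, a 1.37-fold rise (1.15 to 1.64, adjusted p = 0.00704). The BMP5 samples, at 2000, 2300 and 2630, gave 1.24-fold (1.04 to 1.48, adjusted p = 0.062, or 0.0143 with the replicate number as a block). The BMP4 samples, at 2150, 2260 and 2660, gave 1.27-fold (1.07 to 1.52, adjusted p = 0.0171), which became a log2 change of -0.05 with equal totals (adjusted p = 0.642) and was lost with quantile normalization (0.03, adjusted p = 0.832), with edgeR (adjusted p = 0.0708) and without BMP4 replicate VI (adjusted p = 0.101) or control replicate IV (adjusted p = 0.0618). The ratio of Pkp2 to Dsp spanned 0.113 to 0.211 in controls and 0.0665 to 0.11 with BMP2, with no overlap of samples.

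Perp, a membrane protein needed for desmosome assembly and known as a target of the p53 family, had the largest BMP4 response of the 6 desmosomal members. It measured 2930, 2490, 2670 and 3220 normalized counts in controls, 11200, 10700, 10800 and 13400 with BMP2, and 8010, 7180 and 9560 with BMP4. The rise was 4.08-fold with BMP2 (3.43 to 4.84, adjusted p = 2.13e-11) and 2.91-fold with BMP4 (2.42 to 3.5, adjusted p = 8.16e-09). With BMP5 Perp stood at 4690, 5480 and 6360 and with BMP7 at 6470, 5550 and 7020, and it rose 1.94-fold (adjusted p = 2.15e-05) and 2.24-fold (adjusted p = 1.78e-06).

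Gjb1, the connexin of the group, had the widest spread. Its normalized counts were 526, 485, 518 and 662 in controls, 1790, 1370, 2600 and 3550 with BMP2, and 1370, 1300 and 2730 with BMP4. With BMP5 they were 491, 603 and 1220, and with BMP7 755, 675 and 1390. BMP2 and BMP4 samples lay clear of the controls, and BMP5 samples overlapped them. Gjb1 rose 4.01-fold with BMP2 (2.53 to 6.34, adjusted p = 1.3e-05) and 3.11-fold with BMP4 (1.89 to 5.11, adjusted p = 0.000353). BMP5 gave 1.31-fold (0.797 to 2.15, adjusted p = 0.442, or 0.0462 with the replicate block) and BMP7 1.64-fold (0.997 to 2.69, adjusted p = 0.119, or 0.0011 with the block).

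The highest Gjb1 value of each group that had a replicate VI was in replicate VI, at 1.3 to 2.23 times the mean of the other replicates. Cdh17, Dsc2 and Perp were likewise highest in replicate VI in 5 of 5 such groups, at up to 1.32 times the others, as were 5.93% of all genes tested. Within a replicate number, the Gjb1 fold against control was 3.4, 2.82, 5.02 and 5.36 with BMP2, 2.6, 2.68 and 4.12 with BMP4, 0.933, 1.24 and 1.84 with BMP5, and 1.44, 1.39 and 2.1 with BMP7. The last value of each series is that of replicate VI. In the BMP5 series, replicate II had the lowest within-number fold for 9 of 9 members, as it did for 87.7% of the genes called higher with BMP5 and 38.4% of all genes with a fold.

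**Figure D3:**
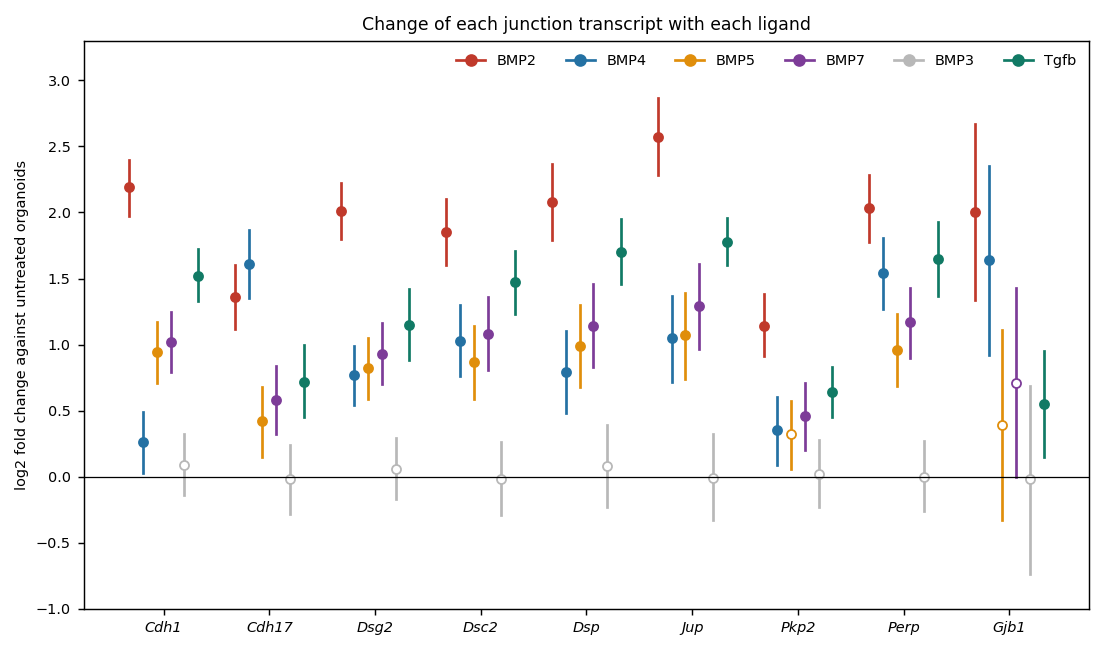
Log2 fold change of the 9 junction genes with each ligand against the untreated organoids of the same table, with 95% intervals from the limma fit; filled points have an adjusted p under 0.05, open points do not. BMP2 changes lie between 1.14 and 2.57, BMP3 changes between -0.02 and 0.09, and the small BMP4 changes of Cdh1 (0.26) and Pkp2 (0.35) turn negative when every sample is scaled to the same total.

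By ligand, 9 of 9 members rose with BMP2, where 36.8% of all genes tested were called higher, and the median log2 change of the members was 2.01 against -0.03 for all genes. With BMP4 9 of 9 were called higher against 33.7% of all genes (median 1.03 against 0.04), of which Cdh1 and Pkp2 reversed with equal totals and Cdh1 with quantile normalization. With BMP4, 7 members were called with equal totals, 7 with edgeR, 9 with DESeq2, and 6 with quantile normalization, 1 of these (Cdh1) lower. With BMP5 7 of 9 rose against 16.5% (median 0.87 against -0.03), all but Pkp2 and Gjb1. The 3884 genes called with BMP5 in either direction became 2515 without BMP5 replicate III and 2532 without VI. With BMP7 8 of 9 rose against 19.2% (median 1.02 against -0.05), all but Gjb1. All samples lay above all controls for 9 of 9 members with BMP2, BMP4 and BMP7 and for 8 of 9 with BMP5, against 33.2%, 33.8%, 21.6% and 19.3% of all genes. The 4 comparisons share their controls. Scaling every sample to the same total moved the median of all genes to -0.48 with BMP2, -0.35 with BMP4 and -0.12 with BMP7; on that scale the members' BMP2 changes were 0.68 for Pkp2 to 2.11 for Jup, still 9 of 9 called. With quantile normalization all 9 were called with BMP2 at smaller log2 changes, 1.97 for Jup, 1.47 for Cdh1, 1.44 for Perp, 1.38 for Dsp, 1.32 for Dsg2, 1.22 for Dsc2 and 0.63 for Cdh17, and with BMP4 Cdh17 stood at 0.87 and Dsc2 at 0.43. Equal totals moved the share of called genes that were higher from 48.9% to 31.8% for BMP2, from 51.7% to 31.1% for BMP4 and from 59.4% to 48.7% for BMP7. Quantile normalization moved that share from 62.5% to 49.8% for BMP5 and to 48% for BMP7.

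With BMP3, 0 of 9 members were called, and neither was any other gene: limma called 0%, edgeR 0 and DESeq2 1 of the genes. An unadjusted p under 0.05 was reached by 110 of the 14746 genes tested, fewer than the 0.05 share that chance alone would give. The members' log2 changes ran from -0.02 to 0.09. For Cdh1 the BMP3 samples measured 25800, 24400 and 22700 normalized counts, for Jup 4170, 3930 and 4040, and for Gjb1 526, 505 and 578. Each of these sets overlapped the controls, and the 95% interval of the Cdh1 fold ran from 0.905 to 1.25 and that of Jup from 0.797 to 1.24. These intervals come from the fit without the replicate number, although same-numbered control and BMP3 samples correlated (r = 0.281 to 0.553). That fit left room for changes of about that size. With the replicate number as a block, 0 of 9 members were called as well.

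Between ligands, BMP2 exceeded BMP4 for 7 of 9 members, where 33.4% of all genes were called higher. The differences ran from 1.4-fold for Perp (1.16 to 1.69, adjusted p = 0.00252) to 3.81-fold for Cdh1, and Jup stood 2.88-fold higher (2.31 to 3.6, adjusted p = 5.98e-08). The members not called were Cdh17 and Gjb1 (1.29-fold, 0.783 to 2.12, adjusted p = 0.362). BMP2 exceeded BMP7 for 9 of 9, against 31.4% of all genes, from 1.61-fold for Pkp2 (1.35 to 1.91, adjusted p = 7.82e-05) to 2.45-fold for Gjb1 (1.49 to 4.02, adjusted p = 0.003), whose samples overlapped. With quantile normalization 6 of the 9 were called, without Cdh17, Dsc2 and Dsp (adjusted p = 0.453, 0.112 and 0.134). Equal totals moved the share of called genes that were higher from 50.1% to 26.7% and the median of all genes to -0.35, with 9 of 9 members still called. These tests share the BMP2 samples.

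Between BMP4 and BMP7, 3 of the 9 were higher with BMP4 (28.4% of all genes) and 1 was lower (31.4% of all genes). These counts do not set the members apart from other genes. Cdh17 was 2.04-fold higher with BMP4 (1.68 to 2.48, adjusted p = 2.55e-06) and Cdh1 was 0.588-fold (0.495 to 0.697, adjusted p = 1.81e-05), and both calls held with equal totals and with quantile normalization. Perp (1.3-fold, adjusted p = 0.0239) and Gjb1 (1.9-fold, adjusted p = 0.0358) were called higher, but neither was called without BMP4 replicate VI (adjusted p = 0.126 and 0.197) or without BMP7 replicate III (0.117 and 0.139), and Gjb1 also not without BMP7 replicate II (0.111). Leaving out BMP4 replicate VI left 2 members called, and Perp was also not called with equal totals (0.743), quantile normalization (0.923) or edgeR (0.0999), nor Gjb1 with equal totals (0.146), edgeR (0.0679) or no minimum (0.052). Dsp gave 0.782-fold (0.62 to 0.986, adjusted p = 0.0634, or 0.0103 with the replicate block), and it was called with DESeq2 (0.0474), edgeR (0.0144) and without BMP7 replicate VI (0.0103). With equal totals, which moved the median of all genes to -0.32 and the share of called genes that were higher from 47.5% to 28.7%, 7 members were called, and Dsg2, Dsc2, Dsp, Jup and Pkp2 were then lower with BMP4, by log2 changes of -0.49, -0.38, -0.68, -0.57 and -0.44.

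BMP5 and BMP7 were not told apart: 0 of 9 members were called, as were 0.0136% of all genes (2 genes, or 0 to 9 without a replicate, and 347 at an unadjusted p under 0.05). The members' log2 differences, BMP5 minus BMP7, ran from -0.32 to -0.08. The 95% interval of the fold was 0.797 to 1.12 for Cdh1 and 0.47 to 1.36 for Gjb1, so differences of those sizes were not excluded.

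Tgfb, tested in its own table against its own controls, also raised 9 of 9 members, where 27.4% of all genes were called higher, and for 9 of 9 all treated samples lay above all controls (31.1% of all genes). The median log2 change of the members was 1.47 against -0.04 for all genes. Values here are TPM, which are per transcript length, so levels can be compared between genes. In untreated organoids Cdh17 was the most abundant at 314, 328 and 346 TPM, followed by Cdh1 at 262, 283 and 267 TPM, with no overlap between them. A middle group of overlapping levels held Jup (mean 81.7 TPM), Dsp (79.2), Dsg2 (77.3), Perp (76.7) and Dsc2 (68.1), and Pkp2 (34.6) and Gjb1 (21.9) stood below it without overlap. With Tgfb Cdh1 took the top place at 731, 768 and 846 TPM, above Cdh17 at 475, 545 and 623 TPM.

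**Figure D4:**
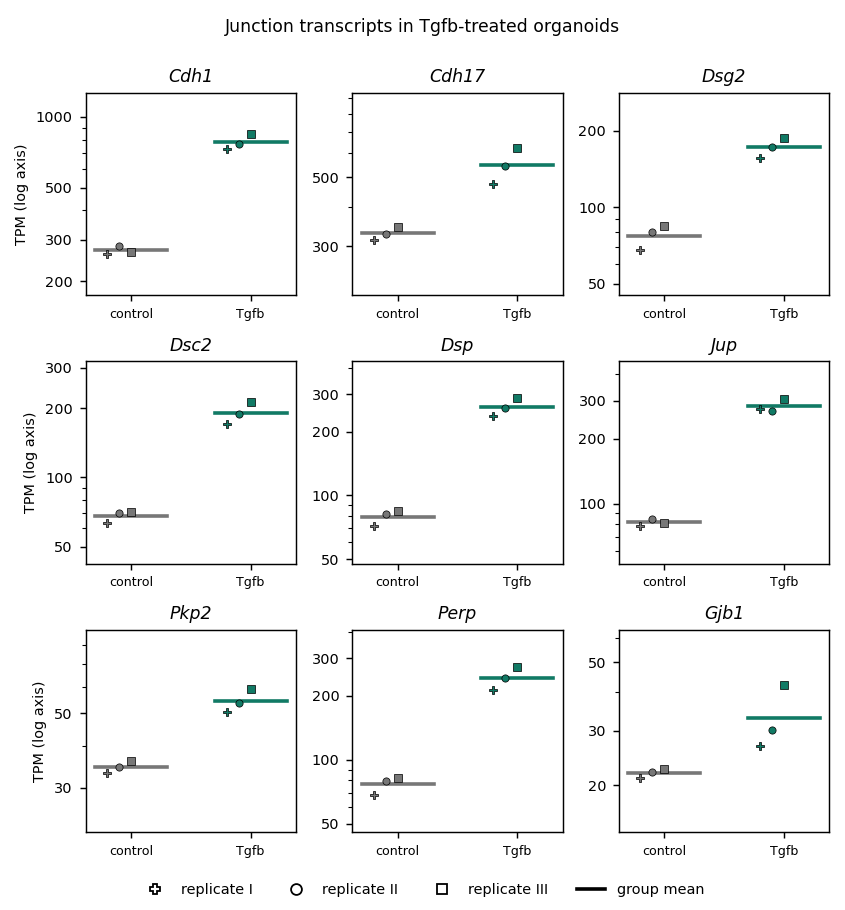
TPM (log axis) of the 9 junction genes in untreated and Tgfb-treated organoids, 3 samples each, with replicates as symbols and group means as bars. All Tgfb samples lie above all controls in every panel, and the groups are nearest in the Gjb1 panel (26.7 to 42.3 against 21.1 to 22.5 TPM).

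Cdh1 rose 2.88-fold with Tgfb (2.51 to 3.29, adjusted p = 2.44e-05) and Cdh17 1.65-fold (1.37 to 1.99, adjusted p = 0.00196). The ratio of Cdh1 to Cdh17 TPM was 0.834, 0.863 and 0.772 in controls and 1.54, 1.41 and 1.36 with Tgfb, so it passed 1 in every treated sample. Of the plaque genes, Jup went from 78.8, 85.2 and 81 TPM to 276, 269 and 305, a 3.44-fold rise (3.04 to 3.89, adjusted p = 1.17e-05). Dsp went from 71.3, 81.8 and 84.5 TPM to 237, 258 and 287, a 3.26-fold rise (2.75 to 3.87, adjusted p = 3.87e-05). Both had treated samples more than double any control in level. Pkp2 rose 1.56-fold (1.36 to 1.77, adjusted p = 0.000734), and the Pkp2 to Dsp ratio went from 0.422 to 0.465 in controls to 0.206 to 0.213 with Tgfb.

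The desmosomal cadherins rose with Tgfb as well, Dsg2 2.22-fold (1.84 to 2.67, adjusted p = 0.00025) and Dsc2 2.77-fold (2.34 to 3.27, adjusted p = 6.15e-05). Their Dsc2 to Dsg2 ratio went from 0.844 to 0.933 in controls to 1.09 to 1.13 with Tgfb. Perp rose 3.13-fold (2.58 to 3.81, adjusted p = 7.13e-05). Gjb1 went from 21.1, 22.1 and 22.5 TPM to 26.7, 30.2 and 42.3 TPM, a 1.46-fold rise (1.11 to 1.93, adjusted p = 0.0294). That call was lost without Tgfb replicate II (adjusted p = 0.0616) and without control replicate I, II or III (adjusted p = 0.0954, 0.0821 and 0.0767). The order of members by fold was led by Jup, Dsp and Perp. Tgfb and the BMPs were measured in separately scaled tables and were not tested against each other.

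The catenins that couple Cdh1 to actin rose with BMP2, BMP5, BMP7 and Tgfb. Beside the shares of all genes called higher given above, the BMP2 fit called 38.4% of all genes lower, the BMP4 comparison 31.4%, that of BMP5 9.87%, that of BMP7 13.2% and Tgfb 29.3%. Of 12 adherens junction partners tested, 9 rose and 1 fell with BMP2, 6 rose and 2 fell with BMP4, 8 and 2 with BMP5, 9 and 1 with BMP7, and 8 and 1 with Tgfb. Chosen for their role, Ctnnb1 (beta-catenin, also a Wnt effector) went from 18000 to 20400 normalized counts in controls to 87500 to 118000 under BMP2 and Ctnna1 (alpha-catenin) from 9370 to 10800 up to 52000 to 62900, rises of 5.16-fold (adjusted p = 3.91e-12) and 5.71-fold (adjusted p = 3.54e-12). Ctnnd1 (p120-catenin) rose 4.23-fold with BMP2 (adjusted p = 1e-11) and 3.51-fold with Tgfb (adjusted p = 1.17e-05). Ctnnb1, Ctnna1 and Ctnnd1 rose 2.1, 1.87 and 2.15-fold with BMP5 and 2.29, 2.18 and 2.52-fold with BMP7. Ctnna1 and Ctnnd1 each rose 2.06-fold with BMP4 (adjusted p = 2.27e-06 and 6.37e-07), and their lowest log2 change among the alternatives was 0.43. With BMP4 the Ctnnb1 change was 1.49-fold (adjusted p = 0.000726), which was lost with equal totals (adjusted p = 0.179) and turned to a log2 change of -0.05 with quantile normalization. The largest rise was that of Nectin4, a nectin adhesion receptor, from 23.1 to 59.5 normalized counts in controls to 929 to 1090 with BMP2 (22.8-fold, adjusted p = 2.98e-11), while its BMP4 samples, at 36.5 to 64.6, overlapped the controls. Nectin4 also led with BMP5, BMP7 and Tgfb (4.49, 5.29 and 3.93-fold), and with BMP4 the lead was held by the actin-binding Lima1 (2.61-fold, adjusted p = 1.65e-08). With Tgfb the mean of Nectin4 went from 0.494 to 4.87 TPM, a low level at which the added 1 understates the fold. The single fall with BMP2 became 3 with equal totals and 2 without control replicate II, and the 2 with BMP5 became 1 without BMP5 replicate III or VI or control replicate II, III or VI. The largest fall in each of these 5 comparisons was that of Nectin1, to 0.393-fold with BMP2 and 0.335-fold with BMP4.

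Of the other desmosomal and plaque genes, 7 were tested in the BMP table and 5 in the Tgfb table. With BMP2, BMP5 and BMP7 6 rose and 0 fell (with BMP2, 2 fell with equal totals, Pkp4 and Dsg1c, and Pkp4 alone with quantile normalization), with BMP4 5 rose and 1 fell, and with Tgfb 5 rose and 0 fell. Dsg3 led with BMP2, BMP5 (5.14-fold) and BMP7 (6.08-fold), and Pkp3, a plakophilin, with Tgfb (3.61-fold, adjusted p = 7.16e-05, control samples 23.8 to 30.8 TPM and treated samples 86.5 to 112 TPM). The Pkp3 lead holds on the log2(value + 1) scale, where the lower Ppl, from a mean of 4.73 to 18.3 TPM, gave 3.36-fold. Dsg3 was under the minimum for the Tgfb test (control mean 0.0792 TPM, highest value 2.15 TPM). With BMP4 the largest rise was that of Evpl (envoplakin, a plakin of the cell envelope), from 281 ± 15.3 to 1173 ± 203 normalized counts (4.13-fold, adjusted p = 2.65e-10), and the gene that fell was Dsg1c, from a mean of 11.7 to 1.59 normalized counts; without BMP4 replicate VI 2 genes fell.

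Other connexins did not share one direction. Gjb2, whose product pairs with other beta connexins, fell with BMP2 (818 ± 121 normalized counts in controls, n = 4, to 295 ± 44.9, n = 4, SD, 0.362-fold, adjusted p = 1.42e-08), with BMP4 (268 ± 26.6, n = 3, 0.33-fold, adjusted p = 3.28e-08) and with Tgfb (0.869-fold, adjusted p = 0.0484, a call lost when any single Tgfb sample or control replicate II or III was left out), and Gjb1 rose with each of these. With BMP5 and BMP7 Gjb2 was not called, at 797 ± 63.8 and 749 ± 14 normalized counts (n = 3 each, adjusted p = 0.919 and 0.588). Gjb5, named after its values were seen, rose with BMP2 from 3.3 to 4.44 normalized counts in controls to 65.9 to 128 (20.4-fold, adjusted p = 2.69e-07) and with BMP7 to 13.6 to 33.7 (4.95-fold, adjusted p = 0.00325). With BMP5 it measured 4.48 to 23.2 (3.17-fold, adjusted p = 0.0307, lost without BMP5 replicate III or VI or control replicate III, IV or VI), and with BMP4 it was not called (1.19 to 4.79, adjusted p = 0.521).

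Of 8 other cadherins and protocadherins tested, 5 rose and 2 fell with BMP2, 4 rose and 2 fell with BMP4, and 2 rose and 0 fell with BMP5 and with BMP7; of 6 tested with Tgfb, 5 rose and 0 fell. The 2 rises became 1 without BMP7 replicate VI or, for BMP5, without BMP5 replicate III or VI or control replicate II or III, and without Tgfb control replicate III 1 gene fell. Cdhr2, a protocadherin that links the tips of brush-border microvilli, led with BMP2 (4182 ± 549 to 19175 ± 2521 normalized counts, 4.58-fold, adjusted p = 5.66e-10) and BMP4 (23067 ± 1102, 5.55-fold, adjusted p = 1.45e-09). With BMP5 and BMP7 the largest rise was that of Pcdh1 (1.5-fold and 1.6-fold), and with Tgfb that of the giant cadherin Fat1 (2.04-fold, adjusted p = 0.000952). The largest falls were those of the planar polarity cadherins Celsr1 with BMP2 (441 ± 67.5 to 87.2 ± 17.8, adjusted p = 9.7e-10) and Celsr2 with BMP4 (398 ± 77.8 to 49.9 ± 10.2, adjusted p = 1.05e-08). With BMP3, 0 genes of these 3 lists were called.

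**Figure D5:**
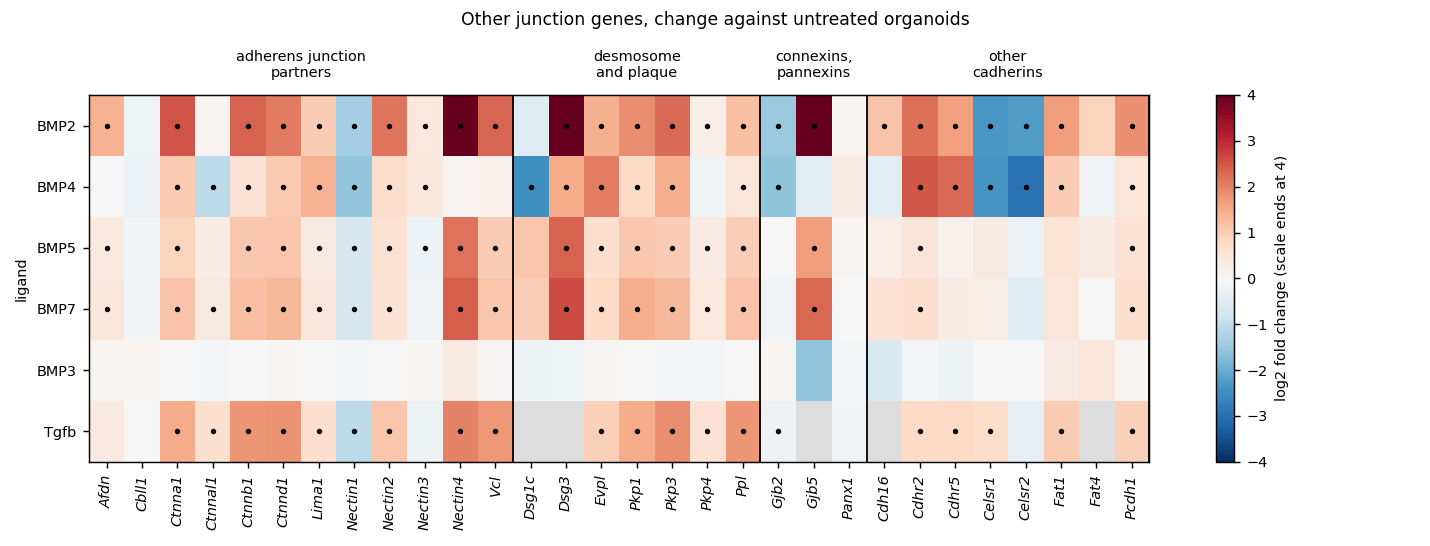
Log2 fold change (colour, ending at 4 in either direction) of 30 other junction genes with each ligand against untreated organoids; black dots mark an adjusted p under 0.05 and grey cells genes not tested. The column of Nectin4 is darkest with BMP2, Gjb2 is blue with BMP2 and BMP4, and the BMP3 row holds no dot; of the BMP4 rises, that of Ctnnb1 turns negative with quantile normalization.

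The junction genes moved beside general epithelial genes. Of the 7 epithelial markers, 5 rose and 2 fell with BMP2 and with Tgfb, 6 rose and 1 fell with BMP4, and 5 rose and 1 fell with BMP5 and with BMP7. Krt8, a keratin of simple epithelia, went from 31200 to 37200 normalized counts in controls to 238000 to 326000 with BMP2, and the homeobox gene Cdx1 from 2140 to 2380 down to 334 to 476. The summed epithelial list was 96830 to 112700 in controls, 565554 to 746094 with BMP2, 226737 to 334360 with BMP4, 177550 to 311710 with BMP5 and 220870 to 328300 with BMP7. Krt8, Krt18 and Krt19 made up most of these sums, with BMP2 means of 285250, 91225 and 163500. Cdx2 was called lower with BMP2 (log2 change of -0.43, adjusted p = 0.0309) and Tgfb (-0.64, adjusted p = 0.00236) and higher with BMP4 (0.84, adjusted p = 0.000552). The list of stratified-epithelium markers, 5 genes, summed to 24 to 97.6 in controls and 1331 to 3727 with BMP2, most of it Krt14 (1.65 to 3.55 against 1300 to 3680), while Trp63 and Krt5, which define basal cells of stratified epithelium, stayed at or below 4.55 normalized counts in every sample. Of the 2 genes of this list that were tested, Krt14 rose with BMP2 and Krt4, a keratin of stratified mucosa, fell from a mean of 50.5 to 9.71 (adjusted p = 0.00121). Krt13, under the minimum for the test, went from 0 to 1.65 normalized counts in controls to 9.41 to 31.6 with BMP2. Krt14 was also called higher with BMP4, BMP5, BMP7 and Tgfb (log2 changes of 3.24, 5.57, 6.45 and 3.76), while Krt4 was not called with BMP4, BMP5 or BMP7. Of 2 immune genes tested, the macrophage gene Cd68 was called higher with BMP2 (a mean of 22.6 to 50.8 normalized counts, adjusted p = 0.00271) and with Tgfb (0.847 to 2.12 TPM, adjusted p = 0.0108), and Lyz2, also made by Paneth cells, was lower with BMP2 (37.3 to 19.3, adjusted p = 0.0128) and BMP7 (16.9, adjusted p = 0.0397). The neuronal tubulin gene Tubb3 was lower with BMP4 (23 to 6.28, adjusted p = 0.00727). The part of these lists in the junction results was not tested.

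Among themselves, the members ran from a Pearson r of 0.99 between Dsg2 and Jup to 0.567 between Cdh1 and Cdh17, over the 20 samples of the BMP table on log2 values. For the members other than Dsp, the 2 most similar genes outside the group were Smox (r = 0.995) and Rtn4 (0.994) for Cdh1, Ncoa4 (0.992) and Abhd4 (0.991) for Cdh17, Epcam (0.995) and Tes (0.994) for Dsg2, and Mboat1 (0.993) and Itgb4 (0.992) for Dsc2. For the plaque genes they were Capns1 and Cttn (both 0.996) for Jup, and Slc44a1 (0.98) and Ywhah (0.979) for Pkp2. For Perp they were Lgals3 (0.997) and Slc25a24 (0.996), and for Gjb1 Coro2a (0.973) and Tmem117 (0.969). These values describe the 20 samples, which share ligands, scaling and controls.

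In the mesenchymal cells, 1 sample each, Cdh1 and Gjb1 were listed at 0 TPM, and Cdh17, Dsp, Dsg2 and Dsc2 at or below 0.518 TPM. Jup stood at 48.5 TPM in fresh and 22.1 TPM in immortalised cells and Pkp2 at 27.8 and 37.5 TPM, so these plaque genes were not confined to the epithelium. Perp stood at 6.66 and 0.0605 TPM. Cdh2 (N-cadherin) stood at 29.7 and 73.7 TPM and Cdh11 at 58 and 83.2 TPM. There is no replicate behind these values.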

How the data were processed

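RNA-seq of 28 samples was used as deposited in 3 tables, and each test stayed within a table. Per the submitters' processing notes, Trim Galore, Salmon, DESeq2 and the build GRCm39 were used. The authors' deposited BMP values, a signal per gene, are normalized counts (whole reads divided by 1 factor per sample, written to 3 digits): 99.3% of 180721 values under 20 reads were whole within 0.05 of a read. The deposited Tgfb and mesenchymal values are TPM, each sample summing to 1000000, which keeps no depth.

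The main test was limma 3.58.1 with an intensity trend on log2(value + 1), two-sided, with Benjamini-Hochberg adjustment over all genes tested and a threshold of 0.05. The BMP fit held 6 groups and the 14746 genes with a mean of at least 10; the Tgfb fit held the 12959 genes with a mean of at least 1 TPM. Fold changes are on the log2(value + 1) scale, which understates those of low genes. Alternatives were pseudocounts of 0.1 and 5, other minimums, equal totals, quantile normalization, no trend, fits of 2 groups, a replicate block, leaving out each replicate, and edgeR 4.0.16 and DESeq2 1.42.0 on the recovered reads. The count tests called 9 of 9 members with BMP2, and with BMP4 edgeR called 7 and DESeq2 9. The limma script was tested on simulated data. Replicates of a group differed by more than sampling noise (mean chi-square per gene 4.45 to 13.51).

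Replicate numbers come from the sample titles. Deviations from the group means correlated between every same-numbered pair (r over 0.1) for control with BMP3 (0.281 to 0.553), BMP4 (0.19 to 0.225), BMP5 (0.158 to 0.262) and BMP7 (0.236 to 0.294), so these numbers were taken to pair the samples; BMP4 with BMP7 (0.206 to 0.293) and BMP5 with BMP7 (0.15 to 0.489) likewise. The blocked value stands beside a result where it changed the call.

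The members and lists were chosen with earlier results of these data known. Named by rule were all 9 members, in each list the called genes with the largest rise and fall, and for the members the 2 genes with the highest Pearson correlation; Ctnna1, Ctnnb1, Ctnnd1 and the marker genes named were added for their role or after their values were seen. Promoter entries were found for 3 of the 9 members. The list for immune cells summed to at most 150 normalized counts. Counts over the connexin list and the list for neurons and glia, some of their genes and the genes most like Dsp are not reported here.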

Additional observations from a re-analysis of the deposited data

Results flagged for a closer look

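In groups of 4 samples, a single sample was compared with the other 3. Of 18 such groups of junction gene values, 2 held a sample whose gap to the nearest other divided by the whole range was above Dixon's critical value, and chance gives about 1 in 20. Cdh17 in control replicate VI stood at 20200 normalized counts (gap 0.955 of the range) against 18000, 18000 and 18100. Pkp2 in BMP2 replicate VI stood at 4920 (0.913) against 3770, 3820 and 3870.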

How the results depend on the processing

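With BMP2, all 9 members were called under every alternative run, with smaller changes under quantile normalization (0.63 for Cdh17 to 1.97 for Jup). The BMP4 change of Cdh1 reversed to -0.14 with equal totals and -0.40 with quantile normalization, and its call was also lost with a pseudocount of 5 (adjusted p = 0.053), no minimum (0.101), 2 groups in the fit (0.0535), edgeR (0.193) and without any BMP4 replicate or control replicate III, IV or VI (0.0778 to 0.126). Pkp2 with BMP4 reversed to -0.05 with equal totals, and Ctnnb1 with BMP4 to -0.05 with quantile normalization. BMP4 against BMP7 gave 4 members called, 8 with quantile normalization, 7 with equal totals and 2 to 5 without a replicate; Dsc2 there, at -0.06, spanned -0.17 to 0.02 without a replicate, and was above 0 without BMP4 replicate III (0.02) or BMP7 replicate VI (0.01). BMP3 gave 0 genes called, 1 with DESeq2, 3 with 2 groups in the fit and 0 to 1 without a replicate. The 3884 genes called with BMP5 became 2515 to 4298 without a replicate, the lowest being 2515 without BMP5 replicate III and 2532 without VI. BMP5 against BMP7 gave 2 genes called, 24 with DESeq2, 4 with edgeR, 4 with a pseudocount of 5 or no minimum, 1 with no trend, equal totals or quantile normalization, 0 with a pseudocount of 0.1 or a minimum of 50, 0 to 9 without a replicate and 6 with the replicate block.

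Of the wider lists, rises among other cadherins with BMP4 went from 4 to 2 with equal totals or quantile normalization, and those with BMP5 or BMP7 from 2 to 4 with the replicate block. Falls among adherens partners went with equal totals from 1 to 3 with BMP2 and from 2 to 4 with BMP4, and from 1 to 2 with BMP7 with either scaling. Falls among desmosomal genes went with BMP4 from 1 to 2 with either, and with BMP2 from 0 to 2 with equal totals and 1 with quantile normalization.

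The replicate block changed no other call of a member in the paired comparisons. In BMP2 against BMP4, whose same-numbered samples did not all correlate (-0.04 to 0.298), it gave adjusted p = 0.00845 for Cdh17 and 0.0437 for Gjb1. The cause of these shifts was not tested, except that fewer samples or genes entered some fits. With 3 or 4 samples a group and no replicate block, the 95% interval of the Cdh1 fold with BMP3 reached 1.25, so smaller changes were not resolved in that fit.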
